A study of Mus musculus with 4 samples.

Results

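The 10 genes described here encode proteins of the surface of lipid droplets and of the first step of lipolysis: the perilipins Plin2, Plin3, Plin4 and Plin5, the CIDE proteins Cidea, Cideb and Cidec, the lipase Pnpla2, its coactivator Abhd5 and its inhibitor G0s2. They were chosen by symbol from a table of 24138 genes, and each of the 10 symbols was found on a single row. The livers came from 4 male C57BL/6J mice aged 18 weeks, and all 4 had been fed the FAT-MASH diet, which gives a fatty and inflamed liver (MASH, metabolic dysfunction-associated steatohepatitis), and treated with RvD1, that is resolvin D1, a mediator made from docosahexaenoic acid. The dose of RvD1, the composition of the diet and the feeding state at collection are not given in the sources used here. The 4 livers form 1 group, numbered 1 to 4 as in the labels, so the values give levels and the spread between animals, and no effect of the diet or of RvD1 can be read from them.

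Lipid droplets store triglyceride and cholesteryl ester under a single layer of phospholipid. Perilipins coat that surface and control which enzymes reach it, and CIDE proteins act where droplets meet, so that lipid passes from a smaller droplet to a larger one. Triglyceride breakdown begins with adipose triglyceride lipase, the product of Pnpla2, which Abhd5 activates and G0s2 inhibits. In hepatocytes the droplets swell in steatosis, and PLIN2 is widely used as a marker of that state.

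Coordinates are those of the deposited table, which uses the mouse build mm10 per the submitters' processing notes, and strands and exons are from GENCODE vM21. Levels are FPKM, fragments per kilobase of transcript scaled to the number of mapped fragments, so genes can be compared with each other per length. The depth, estimated from the smallest values in the table, was between 18.9 and 20.1 M fragments per liver (M, mega). A gene was called expressed when its mean over the 4 livers reached 1 FPKM, which held for 10541 of the 24138 genes and for 9 of the 10 members. The exception was Cidea. An exact 0 in this table can be a failed estimate, since Alb, the albumin gene, was listed at 0 in all 4 livers; no member was listed at 0 in any liver. In bulk liver RNA, fewer cells of a type and less RNA per cell cannot be told apart.

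The levels of the members covered a wide range. Plin2 had the highest mean, 383 ± 82.7 FPKM (SD, n = 4), and was above 97.9% of expressed genes. Cideb followed at 316 ± 49.2 FPKM, G0s2 at 212 ± 125 FPKM, Pnpla2 at 64.8 ± 6.54 FPKM and Cidec at 38.7 ± 14.1 FPKM (each SD, n = 4). Plin3 had 26.4 ± 3.69 FPKM, Plin5 20.02 ± 5.09 FPKM, Abhd5 10.4 ± 0.838 FPKM and Plin4 1.80 ± 0.730 FPKM (each SD, n = 4). Cidea lay at 0.258 ± 0.162 FPKM (SD, n = 4). The order was the same in every liver for 7 of the 9 neighbouring pairs, and the exceptions were Cideb with G0s2 and Plin3 with Plin5. Without liver 3 the order held in the remaining livers for all 9 pairs.

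**Figure D1:**
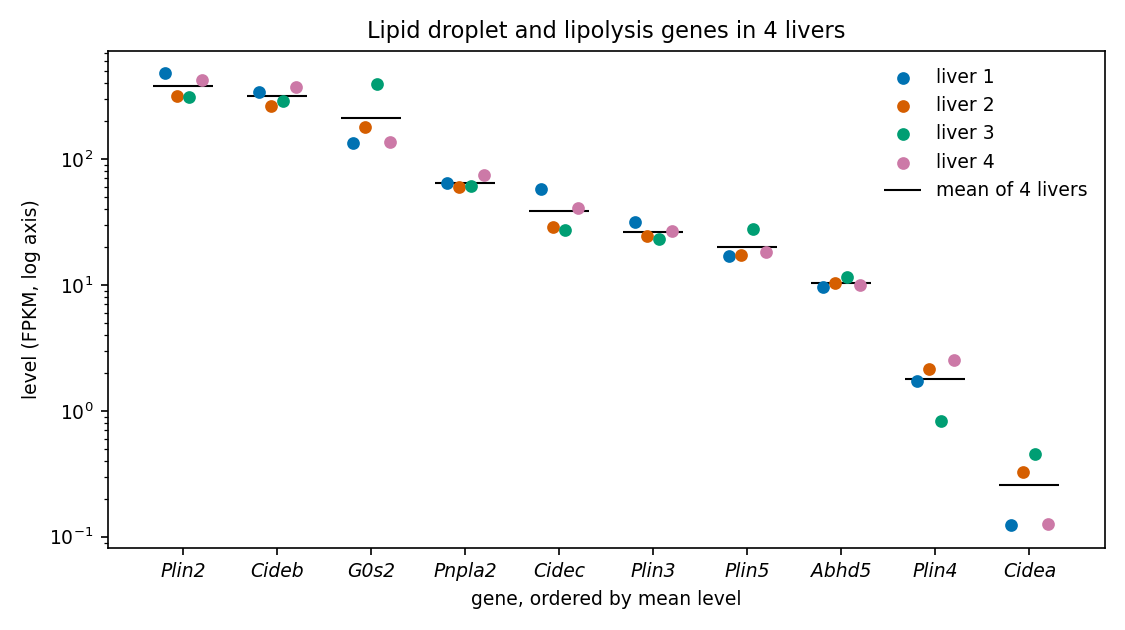
Level of each of the 10 genes in FPKM on a log axis, with 1 point per liver and a line at the mean of the 4 livers, ordered by mean. Plin2, Cideb and G0s2 lie above 100 FPKM in every liver, Plin4 is near 1 and Cidea is below it, and liver 3 is the highest for G0s2 and Plin5 and the lowest for Plin4.

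Neighbours in this order were compared within livers with a two-sided exact sign-flip permutation test of the log2(FPKM + 1) differences. With 4 livers the smallest p that test can give is 0.13, from 2 of 16 sign patterns, so no pair could pass 0.05. The order was itself taken from the means of these 4 livers, so the tests are no separate support for it. The ranges overlapped in 4 pairs. Plin2 exceeded Cideb in all 4 livers, by 1.09-fold to 1.40-fold, although the ranges of both genes overlapped (exact p = 0.13, adjusted p = 0.161 over 9 pairs). Cideb was above G0s2 in 3 of 4 livers with overlapping ranges (exact p = 0.250, adjusted p = 0.250). Plin3 was above Plin5 in 3 of 4 livers, also with overlapping ranges and with the same exact and adjusted p. Cidec exceeded Plin3 in all 4 livers with overlapping ranges. The other 5 pairs had ranges that did not overlap.

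Among the perilipins, Plin2 was the dominant transcript. Plin2 (chromosome 4, 86656565 to 86670059, minus strand) encodes the droplet coat protein that is stabilised by binding to lipid, and its levels were 478, 314, 313 and 426 FPKM in livers 1 to 4. Livers 1 and 4 were high, livers 2 and 3 were nearly equal, and the highest exceeded the lowest 1.53-fold. Of the summed FPKM of the 4 perilipin members, Plin2 supplied 90.5%, 87.8%, 85.9% and 89.98% in livers 1 to 4. The mean share was 88.5 ± 2.13% (SD, n = 4).

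Plin3 (chromosome 17, 56278962 to 56290511, minus strand), a perilipin that moves between the cytosol and nascent droplets, was at 31.5, 24.3, 23.1 and 26.7 FPKM in livers 1 to 4. It had the same order of livers as Plin2 with a narrower range, 1.36-fold. Its share of the summed perilipin level was 6.18 ± 0.498% (SD, n = 4).

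Plin5 (chromosome 17, 56111601 to 56117548, minus strand) encodes the perilipin that links droplets to mitochondria and is typical of oxidative tissues. Its levels were 17.1, 17.2, 27.6 and 18.2 FPKM in livers 1 to 4. Livers 1, 2 and 4 lay close together, and liver 3 was above all of them. Plin5 was the only one of the 9 expressed members in which 1 liver stood apart by Dixon's ratio at its 95% critical value, which 5.46% of all expressed genes passed. Without liver 3 the mean was 17.5 ± 0.625 FPKM (SD, n = 3). The ratio of Plin5 to Plin2 was 0.0357, 0.0547, 0.0882 and 0.0428 in livers 1 to 4, so it was highest in liver 3, a 2.47-fold range.

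Plin4 encodes a perilipin with long amphipathic repeats that is abundant in adipose tissue and muscle. Its levels were 1.72, 2.13, 0.825 and 2.53 FPKM in livers 1 to 4. Liver 3, the highest for Plin5, was the lowest for Plin4, and the highest liver exceeded it 3.07-fold. Without liver 3 the mean was 2.13 ± 0.406 FPKM (SD, n = 3). The Plin4 transcript is long, at 5756 bases, so even the value of liver 3 corresponds to about 89.6 fragments. The span deposited for Plin4 (chromosome 17, 56079631 to 56109802) is shared with Hdgfrp2 on the opposite strand, and the exons annotated for both genes have 17 bases in common. Plin4 and Plin5 lie side by side, with 1798 bases between their spans.

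Cideb carried most of the CIDE transcripts. Cideb encodes the CIDE protein of hepatocytes that also takes part in the lipidation of very low density lipoprotein, and its levels were 342, 263, 288 and 371 FPKM in livers 1 to 4. Livers 1 and 4 were again the high pair, with a 1.41-fold range. Cideb made up 89.2 ± 2.51% of the summed Cide level (SD, n = 4). The span deposited for Cideb (chromosome 14, 55745693 to 55758424) is the same as that of Nop9, a gene on the opposite strand, and 76.3% of the exonic bases annotated for Cideb also lie in exons of Nop9. Whether strand was used in counting is not given in the sources used here, so reads of the overlap cannot be told apart without it. The level of Cideb was 55.7, 43.8, 41.6 and 63.0 times that of Nop9 in livers 1 to 4.

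Cidec (chromosome 6, 113424634 to 113435760, minus strand) encodes the protein that enlarges droplets in adipocytes and in steatotic liver. Its levels were 57.8, 28.8, 27.3 and 40.8 FPKM in livers 1 to 4. The order of the livers was that of Plin2 and Plin3, and the range was wider, 2.11-fold. Cidec supplied 14.4% of the summed Cide level in liver 1 and 9.86%, 8.66% and 9.92% in livers 2 to 4. The ratio of Cidec to Plin2 was 0.121 in liver 1 and 0.0917, 0.0873 and 0.0959 in livers 2 to 4, so liver 1 stood above the other livers also after division by Plin2.

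Cidea, the CIDE gene of brown fat, which lies on chromosome 18, had 0.123, 0.329, 0.454 and 0.127 FPKM in livers 1 to 4. With a transcript of 1115 bases these values correspond to about 2.27, 5.78, 8.11 and 2.19 fragments, so the differences between livers rest on a few fragments and were not resolvable at this depth. Its deposited span is shared with a second gene, B430212C06Rik. Cidea made up 0.0795 ± 0.0576% of the summed Cide level (SD, n = 4).

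The lipase and its coactivator differed little between animals. Pnpla2 (chromosome 7, 141455188 to 141460743, plus strand) was at 63.8, 60.1, 61.0 and 74.4 FPKM in livers 1 to 4, and liver 4 was the highest by a small margin, with a 1.24-fold range. Abhd5 (chromosome 9, 122351616 to 122381523, plus strand), also called CGI-58, was at 9.57, 10.4, 11.5 and 10.05 FPKM. Its range of 1.21-fold was the narrowest of the 10 genes. The ratio of Abhd5 to Pnpla2 was 0.150, 0.174, 0.189 and 0.135 in livers 1 to 4, with a mean of 0.162 ± 0.0241 (SD, n = 4), so the coactivator transcript was the rarer of the pair in each liver. Exons of A730085K08Rik on the opposite strand cover 950 of the 5956 exonic bases of Abhd5, and that gene was listed at 0 in all 4 livers.

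G0s2 had the largest SD of the expressed members on the log2(FPKM + 1) scale. G0s2 (chromosome 1, 193272160 to 193273188, minus strand), a small protein that binds the lipase and blocks its activity, was at 133, 180.4, 396 and 137 FPKM in livers 1 to 4. Liver 3 was 2.19-fold above the next highest liver and 2.97-fold above the lowest. Without liver 3 the mean fell from 212 ± 125 (SD, n = 4) to 150.2 ± 26.3 FPKM (SD, n = 3). G0s2 exceeded Pnpla2 in all 4 livers and the ranges of both genes did not overlap (exact sign-flip permutation test, p = 0.13, adjusted p = 0.161). The ratio of Pnpla2 to G0s2 was 0.479, 0.333, 0.154 and 0.543 in livers 1 to 4, a 3.52-fold range with a mean of 0.377 ± 0.173 (SD, n = 4). Since Pnpla2 itself had a 1.24-fold range, the spread of this ratio lay mostly in G0s2.

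**Figure D2:**
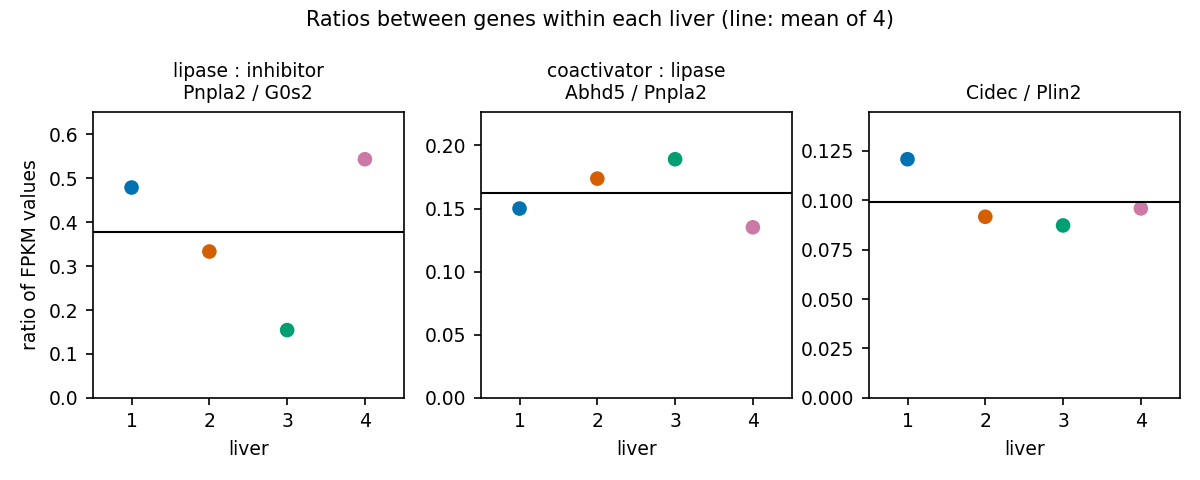
Ratios of FPKM values within each liver, with 1 point per liver, a line at the mean of 4 and axes from 0. Liver 3 has the lowest ratio of the lipase Pnpla2 to its inhibitor G0s2 (0.154) and the highest ratio of the coactivator Abhd5 to Pnpla2 (0.189), and liver 1 has the highest ratio of Cidec to Plin2 (0.121).

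The spread of the members was set beside that of all expressed genes. The SD between livers of log2(FPKM + 1) was 0.73 for G0s2, 0.49 for Cidec, 0.41 for Plin4, 0.32 for Plin5 and 0.31 for Plin2. An SD as large as that of G0s2 was found for 0.550% of expressed genes, one as large as that of Cidec for 1.66% and one as large as that of Plin4 for 3.05%. At the other end, 62.1% of expressed genes had an SD of at least that of Pnpla2 (0.14) and 78.7% at least that of Abhd5 (0.10). Plin3 had 0.19 and Cideb 0.23. The median over the 9 expressed members was 0.31, against 0.16 over all expressed genes. Without liver 3 the median of the members was 0.19, beside 0.14 over all expressed genes.

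A highest to lowest ratio of at least 1.5 was found for 5 of the 9 expressed members, Plin2, Plin4, Plin5, Cidec and G0s2, where the share over all 10541 expressed genes was 28.4%. Plin2 lay just past that ratio at 1.53, and Cideb just short of it at 1.41. The count was 2 of 9 without liver 3 (16.4% of all expressed genes) and 3 of 9 without liver 1 (22.9%).

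**Figure D3:**
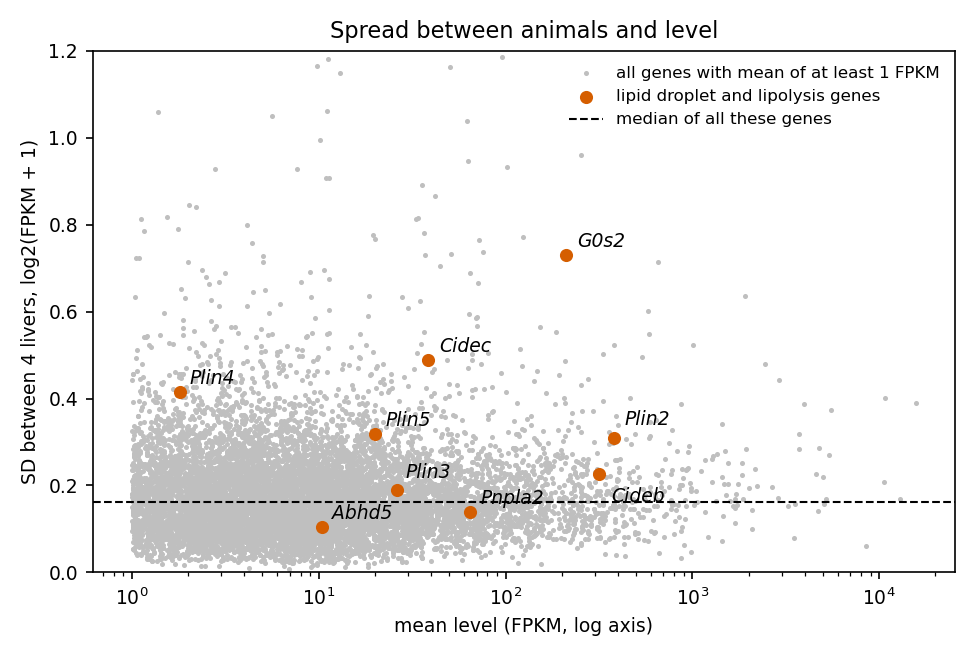
SD of log2(FPKM + 1) between the 4 livers against the mean level in FPKM on a log axis, with the 9 expressed members in orange, the other expressed genes in grey and their median as a dashed line; 20 genes lie above the axis limit of 1.2. G0s2 (0.73) and Cidec (0.49) have the largest SD of the members, and Abhd5 (0.10) and Pnpla2 (0.14) lie below the median of 0.16.

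The livers were not ordered the same way for all members. Of the 9 expressed members, 3 were highest in liver 1 (Plin2, Plin3 and Cidec), 3 in liver 3 (Plin5, G0s2 and Abhd5), 3 in liver 4 (Plin4, Cideb and Pnpla2) and 0 in liver 2. Over all expressed genes the shares were 17.9%, 26.8%, 33.3% and 22.0% for livers 1, 3, 4 and 2. The lowest value was in liver 3 for 4 members (31.4% of all expressed genes), in liver 1 for 3 (20.7%), in liver 2 for 2 (29.9%) and in liver 4 for 0 (18.1%). Plin2, Plin3 and Cidec shared the order liver 1, 4, 2 and 3. In liver 3 the deviation from the gene's own mean of log2(FPKM + 1) was 1.05 for G0s2 and 0.47 for Plin5, whereas it was -0.58 for Plin4, -0.42 for Cidec and -0.26 for Plin2. Plin2 (-0.26) and Cidec (-0.35) were about as low in liver 2, where G0s2 was at -0.07 and Plin5 at -0.18. In liver 1 Cidec (0.63) and Plin2 (0.35) were above their means, and G0s2 (-0.51) and Plin5 (-0.19) below theirs.

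**Figure D4:**
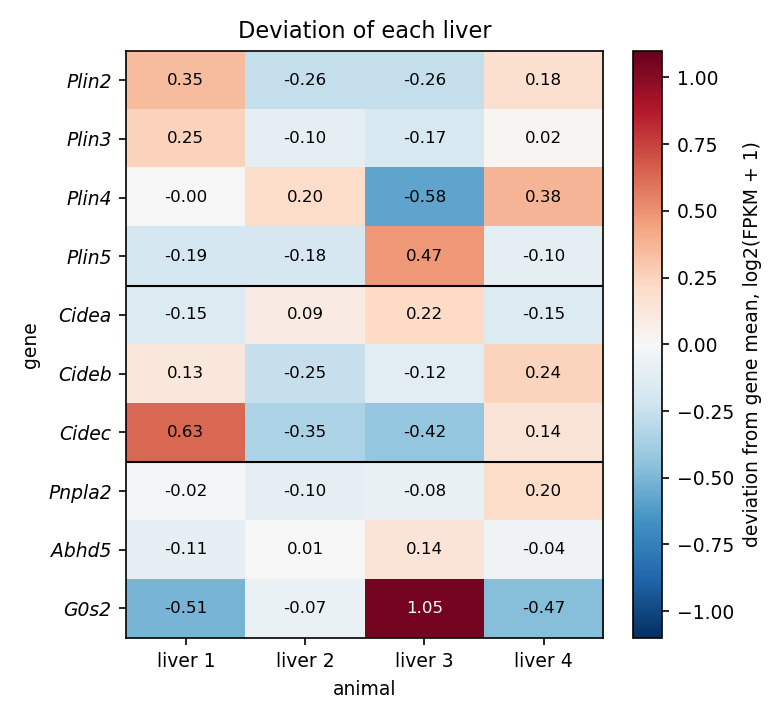
Deviation of each liver from the gene's mean over the 4 livers, on the log2(FPKM + 1) scale, with perilipins, CIDE genes and lipolysis genes separated by lines. Liver 3 is high for G0s2 (1.05) and Plin5 (0.47) and low for Plin4 (-0.58) and Cidec (-0.42), while liver 1 is high for Cidec (0.63), Plin2 (0.35) and Plin3 (0.25).

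The promoters of 4 genes are shown because these genes differed in which liver was highest: liver 1 for Plin2 and Cidec, and liver 3 for Plin5 and G0s2. The sequences are the 250 bases before the start in RefSeq (GRCm38.p6), 5′ to 3′ on the minus strand, on which all 4 genes lie. The windows are chr4:86670060-86670309 for Plin2, chr6:113435761-113436010 for Cidec, chr17:56117549-56117798 for Plin5 and chr1:193273189-193273438 for G0s2. Capitals mark the nuclear receptor core motif AGGTCA, the CCAAT box and the GC box GGGCGG, each on either strand.
Plin2: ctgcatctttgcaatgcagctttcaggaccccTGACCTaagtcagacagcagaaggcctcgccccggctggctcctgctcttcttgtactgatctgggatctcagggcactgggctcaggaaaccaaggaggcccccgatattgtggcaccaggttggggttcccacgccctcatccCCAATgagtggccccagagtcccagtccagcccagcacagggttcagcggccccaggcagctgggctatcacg
Cidec: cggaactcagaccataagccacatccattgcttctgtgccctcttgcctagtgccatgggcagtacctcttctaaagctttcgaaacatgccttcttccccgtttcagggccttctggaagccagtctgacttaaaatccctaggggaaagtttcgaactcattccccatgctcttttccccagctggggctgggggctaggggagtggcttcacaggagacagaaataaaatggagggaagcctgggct
Plin5: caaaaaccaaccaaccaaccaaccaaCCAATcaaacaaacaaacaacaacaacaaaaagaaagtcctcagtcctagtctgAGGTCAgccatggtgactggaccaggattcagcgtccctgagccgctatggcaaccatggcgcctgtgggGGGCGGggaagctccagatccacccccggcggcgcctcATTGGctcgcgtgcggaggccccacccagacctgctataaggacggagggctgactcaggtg
G0s2: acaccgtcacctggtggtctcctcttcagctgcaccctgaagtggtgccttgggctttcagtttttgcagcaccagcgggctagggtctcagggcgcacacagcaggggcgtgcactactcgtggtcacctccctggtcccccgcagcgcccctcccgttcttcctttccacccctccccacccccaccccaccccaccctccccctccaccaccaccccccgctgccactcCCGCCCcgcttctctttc
Promoters of 9 members were found in RefSeq, in 11 windows. The entry for Cidea is missing. Shares over all promoters count windows, so the number of member windows is given beside that of members. AGGTCA, which nuclear receptors such as the PPARs contact as part of a repeat, was present in 3 of the 9 members (3 of 11 windows) and in 14.02% of 32851 promoters of the same length. It began 218 bases before the start in Plin2, 170 bases before it in Plin5 and 69 bases before it in Abhd5. A direct repeat of AGGTCA with 1 base of any kind between its arms was found in 0 of the 11 windows and in 0.0335% of all promoters. CCAAT was present in 4 of the 9 members (4 of 11 windows), Plin2, Plin3, Plin4 and Plin5, and in 33.8% of all promoters. GGGCGG was present in 6 of the 9 members (7 of 11 windows) and in 32.7% of all promoters. TATAAA was in 1 member (Cideb, 1 of 11 windows) and in 12.4% of all promoters. CACGTG and TCACNCCAC were in 0 members, with 6.02% and 1.05% of all promoters. Of the 4 windows printed, GGGCGG was in those of Plin5 and G0s2 and not in those of Plin2 and Cidec. It was also in that of Plin3, which had the same order of livers as Plin2 and Cidec. The windows of Abhd5, highest in liver 3, and of Pnpla2 and Cideb, highest in liver 4, held it as well. Whether the motif bears on the levels was not tested. The printed window of Cidec held none of the motifs searched. G and C made up 67.2% of the G0s2 window, 61.6% of that of Plin2, 58% of that of Plin5 and 52.8% of that of Cidec, where the median over all promoters was 52.4%. These matches describe the letters of the window. Motifs were searched on both strands.

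The genes with the most similar pattern over the 4 livers were searched for the 4 members with the largest SD, by the root mean square distance between values of log2(FPKM + 1) centred on the gene mean. The search covered genes whose mean reached 5 FPKM. With only 4 livers many genes can have a similar pattern, so the number of genes within a distance of 0.1 is given with each. For G0s2 the nearest were Fam8a1 (distance 0.19), Cebpa (0.25) and Aacs (0.25), and 0 of 6537 genes lay within 0.1. Fam8a1 was at 8.36, 11.1, 18.7 and 7.39 FPKM in livers 1 to 4. Cebpa, a transcription factor of hepatocytes and adipocytes, was at 142, 181, 293 and 160 FPKM. Both were highest in liver 3 as G0s2 was, and so were 26.8% of all expressed genes. For Cidec the nearest were Fam13a (0.09), Ifi27l2a (0.14) and Mrpl27 (0.14), with 1 gene within 0.1. Fam13a was at 14.6, 7.82, 6.14 and 11.1 FPKM in livers 1 to 4.

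For Plin4 the nearest were Gal3st1 (0.04), Mgst3 (0.05) and Atp6ap2 (0.05), with 20 genes within 0.1. For Plin5 they were Inf2 (0.02), Sac3d1 (0.03) and Thrsp (0.03), with 83 genes within 0.1. Thrsp, a lipogenic gene that responds to carbohydrate and thyroid hormone, was at 1215, 1267, 2012 and 1289 FPKM in livers 1 to 4.

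Other proteins of the droplet surface were taken from a list of 15 genes, of which 14 were expressed. A ratio of at least 1.5 between the highest and lowest liver was found for 6 of the 14, beside 28.4% of all expressed genes, and their median SD was 0.21. Liver 4 was the highest for 10 of the 14, where 33.3% of all expressed genes had their highest value, and liver 2 the lowest for 8 (29.9%). The most abundant was Mettl7b, at 844 ± 74.6 FPKM (SD, n = 4), which exceeded Plin2. Hsd17b13, a droplet protein of hepatocytes, was at 543, 661, 442 and 721 FPKM in livers 1 to 4, lowest in liver 3. Fitm1, which partitions triglyceride into droplets, was at 19.0, 12.3, 17.0 and 27.7 FPKM and had the widest range of the list, 2.25-fold. Hilpda, another inhibitor of the lipase, was at 3.02, 2.31, 3.49 and 3.70 FPKM, far below G0s2 in each liver and without its excess in liver 3. Plin1, the perilipin of adipocytes, was listed at 0 in all 4 livers.

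Other genes of lipolysis and lipophagy came from a list of 12, all expressed, of which 3 had a ratio of at least 1.5, near the 28.4% of all expressed genes. Their median SD was 0.19. Ces1d, a triglyceride hydrolase of the endoplasmic reticulum, was the most abundant at 458 ± 72.6 FPKM (SD, n = 4), above Pnpla2 in each liver. Lipe, hormone-sensitive lipase, which acts on diglyceride, had 9.67 ± 0.913 FPKM, and Mgll, which acts on monoglyceride, 112 ± 20.7 FPKM (each SD, n = 4). Pnpla3, a relative of Pnpla2, was at 1.66, 1.79, 2.04 and 0.789 FPKM in livers 1 to 4, lowest in liver 4.

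Genes of fat oxidation and fasting, of lipogenesis and of triglyceride synthesis, with Ppara and Pparg, were grouped in 3 lists. Whether they regulate the members was not tested. Of 12 genes of PPAR alpha and its oxidation and fasting targets, 5 had a ratio of at least 1.5 (28.4% of all expressed genes), with a median SD of 0.19. Of these 12, 7 were highest in liver 4 (33.3% of all expressed genes), 2 in liver 3 (26.8%) and 6 lowest in liver 2 (29.9%). Ppara itself, the receptor that drives hepatic fat oxidation, was at 61.9, 55.7, 58.1 and 66.8 FPKM in livers 1 to 4. Of 12 PPAR gamma and lipogenic genes, 10 had a ratio of at least 1.5 (28.4% of all expressed genes), with a median SD of 0.35, and 7 of the 12 were highest in liver 3 (26.8%), where G0s2 and Plin5 were also highest. Fasn, which makes palmitate, was at 237, 176, 286 and 132 FPKM. Pparg, which induces Cidec and Plin4 in fat cells, was at 15.2, 22.2, 21.7 and 25.8 FPKM, lowest in liver 1, where Cidec was highest, and highest in liver 4, where Plin4 was highest. Of 6 genes of triglyceride synthesis, 3 had a ratio of at least 1.5 (28.4% of all expressed genes), with a median SD of 0.26.

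Transcripts of other cells that make these proteins were measured beside them. Of 7 adipocyte markers, Lep, Plin1 and Retn were listed at 0 in all 4 livers, Adipoq, the adiponectin gene, was at 0.0480 FPKM in liver 1, 0.0528 FPKM in liver 3 and 0 in the other livers, and the summed level was 24.7, 47.1, 21.5 and 32.7 FPKM in livers 1 to 4. Most of that sum was Fabp4 and Lipe, which are not confined to adipocytes. The 6 muscle markers summed to between 0.0384 and 1.05 FPKM and 0 were expressed. The neutrophil list, which matters for G0s2 because granulocytes transcribe it, had 6 of 7 genes in the table, 2 of them expressed, and summed to 10.5, 18.7, 11.7 and 8.39 FPKM. That sum was mostly the 2 expressed genes, S100a8 and S100a9. Of the 6 genes, 4 were highest in liver 2 (22.0% of all expressed genes) and 2, Csf3r and Cxcr2, in liver 3 (26.8%). Those 2 had a mean below 1 FPKM. Macrophage markers (7 of 7 expressed) summed to between 173 and 232 FPKM, stellate cell markers (7 of 7) to between 189 and 295 FPKM and endothelial markers (5 of 5) to between 38.9 and 50.01 FPKM. The stellate sum was mostly Dcn, and of the 7 stellate markers 4 were highest in liver 2, 2 in liver 1 and 1 in liver 4. Of the 7 macrophage markers 5 were highest in liver 4 and 2 in liver 2. Of the 5 endothelial markers 4 were highest in liver 2 and 1 in liver 4. Over all expressed genes 17.9% were highest in liver 1, 22.0% in liver 2 and 33.3% in liver 4. Hepatocyte markers, of which 7 of 8 were expressed, summed to 47712, 38774, 47589 and 48688 FPKM in livers 1 to 4, a sum led by Apoa2, Apoa1 and Fabp1. The lowest liver was liver 3 for 3 of these 7 genes (31.4% of all expressed genes), liver 1 for 2 (20.7%) and liver 2 for 2 (29.9%). The part of these other cells in the levels of the members was not tested.

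Liver 2 stood apart by its acute phase transcripts. All 9 genes of that list were highest there, with sums of 6567, 16690, 5552 and 7746 FPKM in livers 1 to 4, and 0 of the 9 expressed members were highest in liver 2, beside 22.0% of all expressed genes. One of the acute phase genes, Lrg1, lies 2129 bases from Plin5 and was at 372, 1197, 544 and 516 FPKM in livers 1 to 4. Plin5 was at 17.2 FPKM in liver 2, near its lowest value, so its pattern over the livers was not that of its abundant neighbour.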

How the data were processed

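The authors deposited 1 table that lists for each gene an identifier, a symbol, a span in the genome and 4 values, 1 per liver. The unit is not stated in it. The values were taken as FPKM made by the authors, because they are not whole numbers and the submitters' processing notes name Cufflinks 2.2.1. Those notes also name STAR 2.7.6a, Trim Galore 0.6.3, cutadapt, FastQC 0.10.1 and the build mm10. The annotation, strand setting and filters are not given in the sources used here. Poly(A) libraries were made per the labels' protocols. Columns were matched to livers through the sample descriptions, with 0 left over. Starts were moved by 1 to the convention of a genome browser.

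Depth was estimated from genes with 1 GENCODE vM21 transcript longer than 1000 bases. The product of FPKM and length less 200 bases, as its median between 25 and 75, was taken as 1 fragment. The estimates are approximate, and fragments per member use the longest transcript. No count table was analysed, so a count test could not be run. The labels number the livers and say nothing more of how they were kept or collected, so the sign-flip p-values describe only these 4 samples. Where a gene was above its neighbour in all 4 livers, the sign-flip p is 0.13 whatever the size of the differences.

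Values were analysed as log2(FPKM + 1), which understates differences of genes near 1 FPKM. Genes were named as members, as genes of fixed lists on which a result turns, and as the 3 nearest patterns of 4 members. The members and lists were chosen with earlier results of these data known. The procedures were tested on simulated data. Alternatives were another pseudocount, filter, ratio or scaling, and leaving out each liver. Python 3.11.15, numpy 2.4.6 and pandas 2.3.3 were used.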

Additional observations from a re-analysis of the deposited data

Results flagged for a closer look

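A liver was looked at again where its distance to the closest liver, as a share of the whole range, passed the 95% critical value of Dixon's ratio. Chance passes about 1 gene in 20, and 5.46% of the 10541 expressed genes did so. Plin5 was the only one of the 9 expressed members to pass, at 0.868, because liver 3 was above the other 3 livers. It also passed with a pseudocount of 0.1 (0.866) or 5 (0.872) and after median-ratio scaling (0.921). G0s2 was at 0.722 and did not pass, since liver 2 lay between liver 3 and the others. Of the genes with the nearest pattern to Plin5, Thrsp (0.882) and Sac3d1 (0.881) passed for liver 3 as well; they were selected for being like Plin5, so this adds no separate evidence. The hepatocyte marker Apoa1 passed at 0.870, with liver 4 as its highest. Of the acute phase list Orm1 passed at 0.911, with liver 2 as its highest, and the other genes of that list did not pass.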

How the results depend on the processing

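No paired analysis was possible because the 4 livers form a single group. Leaving out 1 of 4 livers cannot by construction move a mean, share or ratio past the SD of the same 4 livers, so these values say nothing of stability. The number of expressed members with a ratio of at least 1.5 was 5 and ranged from 2 to 5 with 1 liver left out. It was 3 of 9 with a ratio of at least 2, beside 6.54% of all expressed genes, and 4 of 8 with a mean of at least 5 FPKM, beside 18.1%. The median SD of 0.31 ranged from 0.19 to 0.35 with 1 liver left out, with the lowest value without liver 3. Fewer livers give a narrower range by construction. Median-ratio scaling factors were between 0.993 and 1.03, and the count of 5 and the single outlying member were the same under them. The fewest fragments, about 2.19 to 8.11 per liver, lay behind the values of Cidea. The 7 neighbouring pairs with the same order in every liver became 9 without liver 3.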
